A study of Mus musculus with 6 samples.

Results

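The transcripts of 5 inhibitory receptor genes, Pdcd1, Havcr2, Lag3, Tigit and Ctla4, were followed in tumor T cells. They were taken by name, as 5 of the 14597 genes in the count table, and all 5 were detected. TCRβ+ cells had been sorted on day 16 from B16-F10 melanomas, a mouse melanoma line implanted under the skin, and their RNA was read one cell at a time from the 5′ end. Every animal carried the Foxp3-EGFP-DTR allele, in which cells that express Foxp3 also carry the diphtheria toxin receptor, and was 8 to 14 weeks old. The labels give 3 samples from animals that received PBS and 3 from animals that received diphtheria toxin (DTx, 1 μg per injection), which removes Treg cells, on days 7, 9, 11 and 13. The cells carry only a library number from 1 to 6 that no label ties to a sample, so none of the 12818 cells has a known treatment, the 6 libraries cannot serve as replicates, and the pool is 1 sample. No effect of DTx is reported, no p-value was computed, and every interval below is a 95% interval that covers counting error only.

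The 5 genes encode surface receptors that dampen T cell activation, and they are commonly used together to describe T cells that have met antigen for a long time. PD-1, the product of Pdcd1, recruits phosphatases to the engaged T cell receptor and its costimulatory partner. TIM-3 (Havcr2) binds galectin-9 and CEACAM1, LAG-3 (Lag3) is a relative of CD4 that binds MHC class II, TIGIT competes with the activating receptor CD226 for the ligand CD155, and CTLA-4 competes with CD28 for CD80 and CD86. CTLA-4 is also a constitutive product of Treg cells and a target of FOXP3.

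The pool held 21816565 UMIs (unique molecules counted), between 1916305 and 5127776 per library, and the median cell of a library held from 610 to 2499.5 UMIs. The lineages were set by the UMIs of 4 genes. The 1205 CD4+ Tconv cells had a Cd4 UMI and none of Cd8a, Cd8b1 or Foxp3, CD8+ T cells (4497) had a Cd8a or Cd8b1 UMI and none of Cd4 or Foxp3, and Foxp3+ cells (97) had a Foxp3 UMI and none of Cd8a or Cd8b1. A further 6838 cells (53.3%) had no UMI of these 4 genes and 168 had UMIs of both Cd4 and Cd8. The Foxp3+ cells came from library 1 (49), library 2 (30), library 3 (17) and library 6 (1), and 19 of them had a Cd4 UMI. At least 1 UMI of a T cell marker was found in 95.4% of all cells and in 629 of the 629 cells with 3 or more of the receptors. Melanoma markers gave 67 UMIs in 18 cells, none of them among these 629. There were 76 barcodes that occurred in 2 libraries. As a background, the receptors were counted in the 997 cells with UMIs of both Ccr7 and Lef1, genes of naive T cells, of which 183, 663 and 93 came from libraries 1, 2 and 3. The 21, 23 and 14 such cells of libraries 4, 5 and 6 were deep, with medians of 3749, 3911 and 2927.5 UMIs. Tigit was found in 61.9%, 56.5% and 42.9% of them, Ctla4 in 57.1%, 78.3% and 42.9%, and Pdcd1 in 14.3%, 26.1% and 14.3%, so the pooled background comes mostly from libraries 1 to 3 and is no background for libraries 4 to 6. Naive markers moved with the libraries. A UMI of Ccr7, Lef1, Tcf7, S1pr1 or Klf2 was found in 95.8% of CD8+ T cells of library 2 and in 48.7% of those of library 6, with 73.8%, 65.2%, 70.5% and 55.2% in libraries 1, 3, 4 and 5.

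The receptor genes lie on 4 chromosomes. In GRCm38 (GENCODE M21), Pdcd1 (ENSMUSG00000026285.7) spans chr1:94038305-94052553 on the minus strand and Ctla4 (ENSMUSG00000026011.13) spans chr1:60887000-60915832 on the plus strand, where a processed pseudogene, Rpl18-ps1, overlaps it. Havcr2 (ENSMUSG00000020399.14) spans chr11:46454935-46481255 on the plus strand. Tigit (ENSMUSG00000071552.5) spans chr16:43648867-43664146 on the minus strand. Lag3 (ENSMUSG00000030124.2) spans chr6:124904361-124911705 on the minus strand, 16139 bases from Cd4, which is one of the gating genes. All 5 are protein-coding. Since the receptors were often found in the same cells, the 250 bases before the RefSeq start of 4 of them are shown (build GRCm38.p6, each read 5′ to 3′ on the strand of its gene). Capitals mark GGAAA or its reverse complement TTTCC, a core that NFAT factors bind and that also holds the GGAA core of ETS factors, and TGANTCA, the AP-1 motif. Both strands were searched.

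Pdcd1 (chr1:94052554-94052803): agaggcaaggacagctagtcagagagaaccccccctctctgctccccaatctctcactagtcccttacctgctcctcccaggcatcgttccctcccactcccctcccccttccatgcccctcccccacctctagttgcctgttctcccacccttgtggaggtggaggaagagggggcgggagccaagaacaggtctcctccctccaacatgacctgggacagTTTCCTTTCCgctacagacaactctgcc
Havcr2 (chr11:46454681-46454930): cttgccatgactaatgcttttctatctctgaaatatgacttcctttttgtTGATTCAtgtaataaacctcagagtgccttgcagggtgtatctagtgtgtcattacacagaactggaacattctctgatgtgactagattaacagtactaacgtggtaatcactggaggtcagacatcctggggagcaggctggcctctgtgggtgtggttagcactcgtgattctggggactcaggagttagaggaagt
Tigit (chr16:43664185-43664434): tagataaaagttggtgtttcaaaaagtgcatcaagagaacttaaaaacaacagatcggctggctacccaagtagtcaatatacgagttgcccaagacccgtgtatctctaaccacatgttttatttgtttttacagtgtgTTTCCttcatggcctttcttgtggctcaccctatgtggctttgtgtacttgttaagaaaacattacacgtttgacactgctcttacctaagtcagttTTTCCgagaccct
Ctla4 (chr1:60908775-60909024): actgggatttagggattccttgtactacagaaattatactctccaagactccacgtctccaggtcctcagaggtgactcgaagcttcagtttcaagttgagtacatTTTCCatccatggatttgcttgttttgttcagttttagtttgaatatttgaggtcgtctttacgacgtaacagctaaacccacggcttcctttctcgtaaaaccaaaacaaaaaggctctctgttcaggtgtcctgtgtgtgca

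The Pdcd1 window holds 2 adjoining copies of TTTCC that end 19 bases before the start, the Tigit window holds 2 copies, the Ctla4 window holds 1 and the Havcr2 window holds none but has the only AP-1 match. GGAAA occurs on either strand in 55.6% of 32851 RefSeq promoter windows of this length and TGANTCA in 6.75%, so the matches describe these windows and are not evidence of a site. The Ctla4 window lies inside the GENCODE interval of the gene, whose longest model starts further upstream.

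Pdcd1 was found in both lineages. A UMI was present in 813 of 4497 CD8+ T cells (18.1%, 17.0 to 19.2), 206 of 1205 CD4+ Tconv cells (17.1%, 15 to 19.3) and 15 of 97 Foxp3+ cells (15.5%, 8.92 to 24.2). The Ccr7 and Lef1 background was 1.81% (1.07 to 2.84) at a median of 1151 UMIs per cell, beside medians of 1708, 1622 and 1532 in the CD8+ T, CD4+ Tconv and Foxp3+ gates. From library 1 to library 6 the share of CD8+ T cells with Pdcd1 was 10.1%, 1.02%, 12.2%, 30.4%, 30.0% and 20.2%. In CD4+ Tconv cells the same libraries gave 12.4%, 2.65%, 6.50%, 25.6%, 24.2% and 14.4%. Both lineages thus had their lowest share in library 2 and their highest in libraries 4 and 5, which were also the deepest. With each cell thinned to 1000 UMIs, which 3735 of the CD8+ T cells reached, the CD8+ shares ran from 0.862% in library 2 to 14.3% in library 5. As UMIs scaled to the gate's total (CPM), the CD8+ level was highest in library 5 (206 CPM, 189 to 225) and fell through libraries 4, 6, 3 and 1, each overlapping its neighbor in counting error, to 12.2 (6.98 to 19.8) in library 2, which did not overlap library 1. A CD8+ T cell with Pdcd1 held a mean of 1.84 UMIs of it and at most 15.

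Havcr2 was found mainly in libraries 4, 5 and 6. A UMI was present in 8.76% of CD8+ T cells (7.95 to 9.63), 8.30% of CD4+ Tconv cells (6.80 to 10.0) and 6.19% of Foxp3+ cells (2.30 to 13), over a background of 0.602% (0.221 to 1.31). Of the 6 background cells with Havcr2, 5 were among the 23 of library 5 (21.7%, 7.46 to 43.7). The pooled background is therefore no measure for that library. From library 1 to library 6 the CD8+ share was 1.13%, 0.113%, 2.99%, 19%, 16.9% and 7.86%. Libraries 4, 5 and 6 therefore held 157, 147 and 70 of the 394 CD8+ T cells with Havcr2. The CD4+ Tconv share was 4.14% in library 1, 0 of 151 cells in library 2, where up to 1.99% could have gone unseen, and 1.63%, 13.4%, 13.7% and 5.85% in libraries 3 to 6. Thinned to 1000 UMIs, the CD8+ share was 0.636% in library 1 and 7.39% in library 4, and the level was 8.5 CPM (3.89 to 16.1) against 91.4 CPM (80.2 to 104).

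Lag3 was found in few CD4+ Tconv cells. A UMI was present in 38 of 1205 (3.15%, 2.24 to 4.30), 325 of 4497 CD8+ T cells (7.23%, 6.49 to 8.02) and in 5 of 97 Foxp3+ cells (5.15%, 1.69 to 11.6), over a background of 1.0% (0.482 to 1.84). The CD8+ share in libraries 1 to 6 was 3.70%, 0.677%, 5.47%, 13.5%, 10.8% and 7.63%. The CD4+ Tconv share was 4.83% in library 1, 0 of 151 cells in library 2, with the same limit of 1.99%, and 0.813%, 6.23%, 2.39% and 2.13% in libraries 3 to 6. The CD4+ Tconv share was thus below the CD8+ share, with intervals that did not overlap, in libraries 4 to 6, whereas the intervals overlapped in libraries 1 to 3.

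Tigit was present in 24.7% of CD8+ T cells (23.4 to 26.0), 25.6% of CD4+ Tconv cells (23.2 to 28.2) and 22.7% of Foxp3+ cells (14.8 to 32.3), over a background of 6.32% (4.89 to 8.01). From library 1 to library 6 the CD8+ share was 10.3%, 3.72%, 11.9%, 43.8%, 40.6% and 28.1%, and the CD4+ Tconv share was 20.7%, 2.65%, 8.13%, 40.0%, 33.8% and 23.4%. Both lineages were again lowest in library 2 and highest in library 4, while library 1 gave the widest gap between them. In library 2 itself the background was 3.17% and its interval overlapped those of both lineages. Thinned to 1000 UMIs, the CD8+ share ran from 2.01% in library 2 to 21.2% in library 4.

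Ctla4 was found in 59 of 97 Foxp3+ cells (60.8%, 50.4 to 70.6), or in 45.8% (31.4 to 60.8) without library 1. Its share was 27.2% of CD4+ Tconv cells (24.7 to 29.8) and 22.4% of CD8+ T cells (21.2 to 23.7), over a background of 9.43% (7.69 to 11.4). The CD8+ share in libraries 1 to 6 was 15.4%, 4.18%, 15.7%, 36.2%, 37.4% and 21.2%. The CD4+ Tconv share was 26.9%, 9.93%, 9.76%, 38.0%, 36.2% and 21.3%. In CPM the order of the libraries differed between the lineages. In CD4+ Tconv cells library 1 stood highest with 406 (329 to 495), above library 4 with 267 (235 to 301), whereas in CD8+ T cells library 1 gave 145 (123 to 170), below library 5 with 231 (213 to 251). A single CD4+ Tconv cell of library 2 held 20 Ctla4 UMIs. In Foxp3+ cells with Ctla4 the mean was 2.31 UMIs, beside 1.96 in CD4+ Tconv and 1.67 in CD8+ T cells. The Ctla4 level of Foxp3+ cells was 695 CPM (584 to 823).

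**Figure D1:**
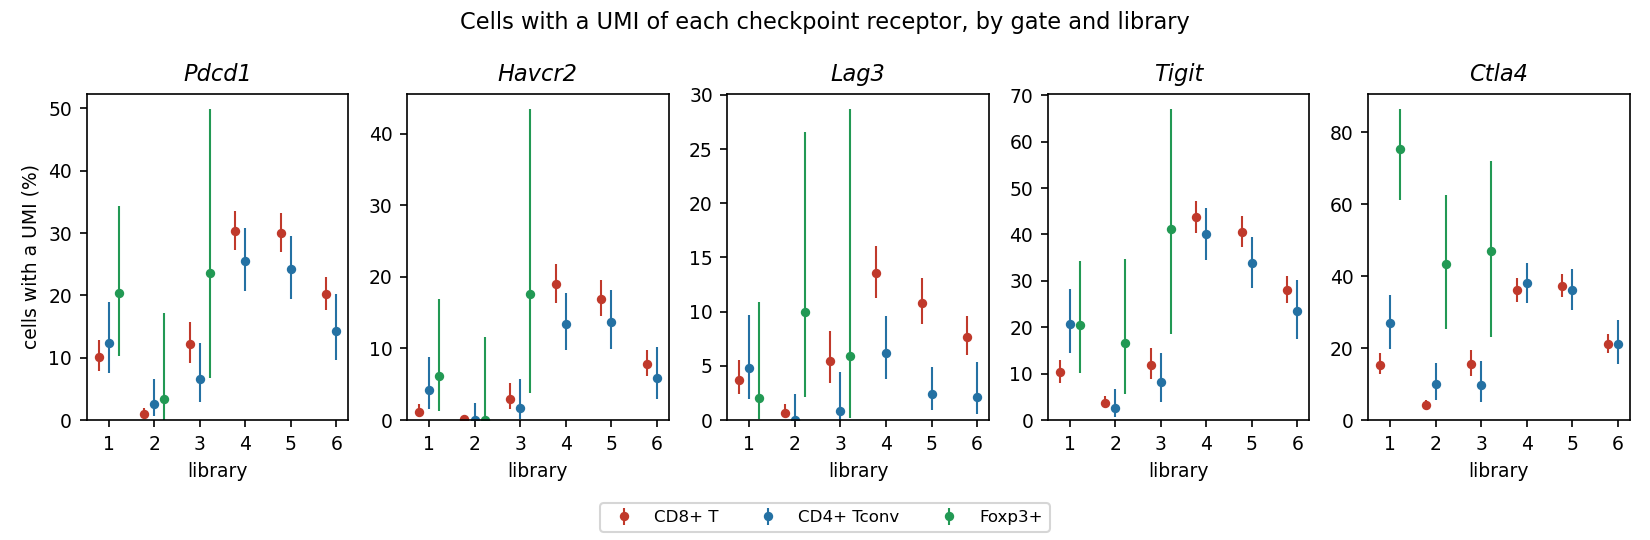
Percent of cells with at least 1 UMI of each receptor gene (vertical axis, scaled separately for each gene) in libraries 1 to 6, for CD8+ T, CD4+ Tconv and Foxp3+ cells, with exact binomial 95% intervals; gates with fewer than 10 cells in a library are not drawn. CD8+ T cells were lowest in library 2 for all 5 genes, from 0.113% for Havcr2 to 4.18% for Ctla4, and the Foxp3+ share of Ctla4 in library 1 was 75.5%.

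To ask whether a receptor marked 1 lineage over the other at equal depth, CD8+ T cells with a UMI were counted against the number expected from CD4+ Tconv cells of the same library and the same 1 of 10 bins of UMIs per cell. Lag3 was the 1 receptor of 5 that was over 2-fold higher in CD8+ T cells, where 2.51% of 8900 genes tested were, and 0 of 5 were over 2-fold lower, where 2.27% of genes were. For Lag3, 325 CD8+ T cells were observed against 137 expected, a ratio of 2.38 (2.12 to 2.65), and 1.70% of genes had a higher one. With the counting error of the CD4+ Tconv cells included, in a Mantel-Haenszel ratio, it was 2.39 (1.73 to 3.32). The ratio was 0.744 in library 1 and 5.45, 2.12, 4.27 and 2.53 in libraries 3 to 6, and none could be formed in library 2. Left out 1 at a time, the libraries gave 2.01 to 2.85. Markers of other cell types were also more frequent in the CD8+ gate, with ratios of 7.28 for Klrb1c (59 CD8+ T cells) and 6.04 for Eomes of the NK genes, 6.43 for Cd79b (122 cells) of B cells and 24.6 for Cd68 (129 cells) of myeloid cells, while Ncr1 was found in 2 cells. Among CD8+ T cells matched for depth, Lag3 was found with Klrb1c in 5 cells against 7.45 expected, with Eomes, which activated CD8+ T cells also express, in 52 against 39.1, with Cd79b in 10 against 12.2 and with Cd68 in 12 against 13.7.

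Fewer CD4+ Tconv cells held Lag3, but those that did held more UMIs of it. Of the 38 CD4+ Tconv cells with Lag3, 15 held at least 2 UMIs (39.5%, 24.0 to 56.6), beside 50 of 325 CD8+ T cells (15.4%, 11.6 to 19.8). When 2 UMIs were required for detection, the ratio of CD8+ to CD4+ Tconv cells was 1.09 (0.807 to 1.43). The level was 40.2 CPM (36.3 to 44.3) in CD8+ T cells and 28.3 CPM (22.3 to 35.6) in CD4+ Tconv cells. Of those 15 CD4+ Tconv cells, 8 came from library 4, 12 also had a UMI of Pdcd1, 9 of Ctla4, 7 of Tigit and 8 of Cd81, a tetraspanin. For the other receptors the share of positive cells with at least 2 UMIs was nearly equal, 40.1% and 40.3% for Pdcd1, 27.2% and 26.0% for Havcr2, 35.7% and 35.3% for Tigit, and 38.6% and 37.8% for Ctla4, in CD8+ T and CD4+ Tconv cells respectively.

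The other receptors lay close to the median of all genes, whose log2 ratio was -0.036. Pdcd1 was at 1.14 (1.06 to 1.22) and Havcr2 at 1.10 (0.994 to 1.21), or at 1.16 (1.01 to 1.32) and 1.19 (0.973 to 1.46) with the error of both gates. The Pdcd1 ratio fell to 0.940 (0.871 to 1.01) when the gates required 2 UMIs, which left 261 CD4+ Tconv cells. Tigit was at 1.03 (0.970 to 1.09). Ctla4 was lower in CD8+ T cells, at 0.805 (0.756 to 0.856), or 0.873 (0.790 to 0.965) with the error of both gates. Libraries 1 and 2 gave the lowest Ctla4 ratios, 0.496 and 0.246, while libraries 3 to 6 gave 1.31, 0.953, 1.02 and 0.825. Tigit was likewise at 0.445 and 0.734 in libraries 1 and 2 and between 1.06 and 1.23 in libraries 3 to 6. Pdcd1 was at 0.831 and 0.214 in libraries 1 and 2 and at 1.2 to 1.81 in libraries 3 to 6. Havcr2 was at 0.243 in library 1 and at 2.09, 1.32, 1.14 and 0.927 in libraries 3 to 6, and without library 4 its pooled ratio was 0.991. Libraries 1 and 2 also held 49 and 30 of the 97 Foxp3+ cells. Ikzf2, which encodes the Treg-associated factor Helios, had a UMI in 16.6% of CD4+ Tconv cells of library 1 (10.9 to 23.6) and 6.43% of its CD8+ T cells (4.63 to 8.65), and in 5.30% (2.31 to 10.2) and 2.48% (1.56 to 3.74) of those of library 2. Libraries 3 to 6 gave 8.94%, 14.4%, 9.56% and 6.38% of CD4+ Tconv cells and 9.70%, 13.1%, 12.9% and 9.43% of CD8+ T cells. Libraries 4 and 5 held 0 Foxp3+ cells. Of CD4+ Tconv cells with an Ikzf2 UMI, 49.6% had Ctla4 (40.6 to 58.6), beside 24.6% (22 to 27.3) of those without, at medians of 2249 and 1574 UMIs. A similar gap was seen in CD8+ T cells, with 42.5% (37.6 to 47.4) beside 20.5% (19.2 to 21.7), at medians of 3012 and 1636.5 UMIs. The part of Foxp3-expressing cells without a Foxp3 UMI in these ratios was not tested. Without the cells that had a naive marker UMI, the Ctla4 ratio was 0.912 (0.822 to 1.01).

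**Figure D2:**
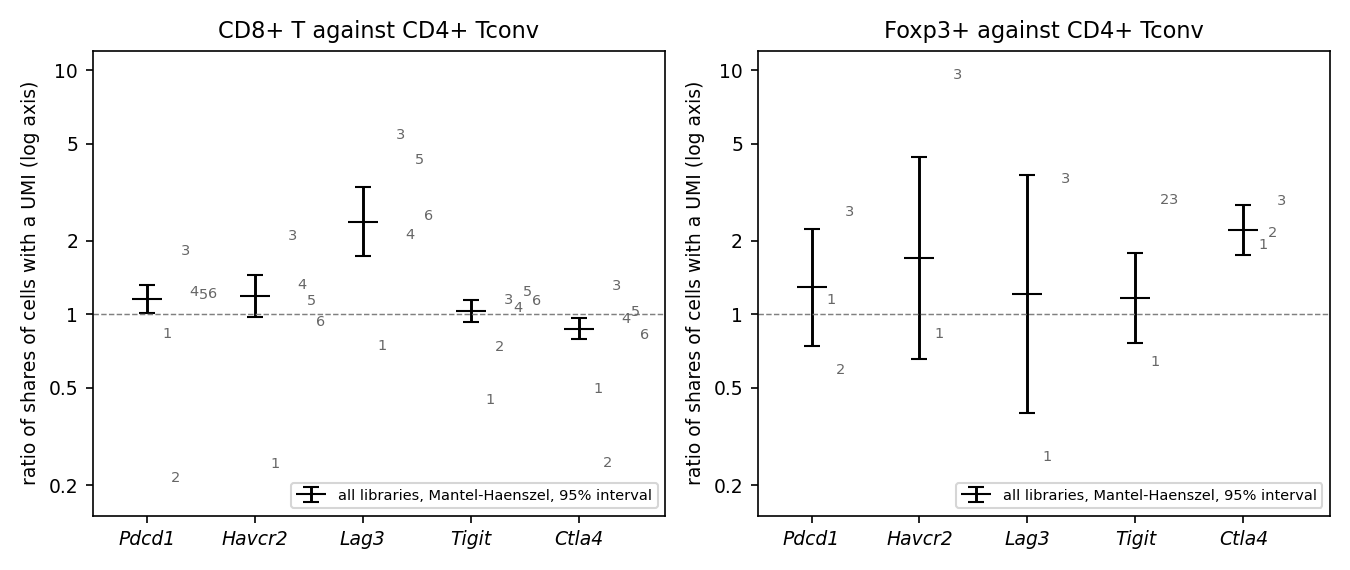
Ratio of the shares of cells with a UMI, on a log axis, for CD8+ T against CD4+ Tconv cells (left) and Foxp3+ against CD4+ Tconv cells (right), matched by library and depth; bars give the Mantel-Haenszel ratio over all libraries with its 95% interval and the digits give observed over expected in each library, where it could be formed and was above 0. Lag3 on the left (2.39) and Ctla4 on the right (2.22) lay furthest from 1, and library 1 lay below 1 for all 5 genes on the left.

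Among other inhibitory receptors, 2 of the 10 tested were over 2-fold higher in CD8+ T cells and 1 was over 2-fold lower, with a median log2 ratio of 0.31. Cd160 (7.82) and Klrc1 (4.89), receptors shared with NK cells, exceeded Lag3, and Btla, which binds HVEM, was at 0.474. Of 7 effector genes, 4 were over 2-fold higher, namely Gzma (6.0), Gzmk (5.75), Prf1 (5.10) and Gzmb (2.51), which encode granzymes and perforin. Of 6 costimulatory receptors none was over 2-fold higher and 1 was over 2-fold lower, Tnfrsf4 (OX40) at 0.202. Of 19 transcription factors, Eomes was over 2-fold higher (6.04) and Maf (0.238) and Tox2 (0.165) were over 2-fold lower. None of 10 signaling genes passed in either direction, and of 7 ligands of the receptors only Cd86 did (2.40).

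The 97 Foxp3+ cells were set against 473 CD4+ Tconv cells that shared their library and 1 of 4 depth bins. Ctla4 was the 1 of the 4 receptors tested that was over 2-fold higher, where 4.56% of 5135 genes were, and 0 of 4 were over 2-fold lower, where 5.37% of genes were. It was seen in 59 Foxp3+ cells against 28.2 expected, a ratio of 2.09 (1.59 to 2.70), or 2.22 (1.75 to 2.81) with the error of both gates. The ratio was above 1 in each of the 3 libraries that held over 1 Foxp3+ cell, at 1.93, 2.16 and 2.91 in libraries 1, 2 and 3. The shares behind it were 75.5% of 49 cells, 43.3% of 30 cells and 47.1% of 17 cells. Thinned to 1000 UMIs and not matched by library, Ctla4 was found in 50% of 76 Foxp3+ cells and 16% of 910 CD4+ Tconv cells. Within libraries 1, 2 and 3 the thinned shares were 55%, 44% and 40% of 40, 25 and 10 Foxp3+ cells. The CD4+ Tconv cells of these libraries gave 25%, 10.1% and 12.5%.

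The other receptors were not distinguishable between Foxp3+ and CD4+ Tconv cells at this depth. Pdcd1 was at 1.25 (0.699 to 2.06), Havcr2 at 1.51 (0.554 to 3.28) and Tigit at 1.10 (0.691 to 1.67). Lag3, at 1.21 (0.394 to 2.83), had a UMI in only 43 cells and did not reach the minimum of 50 set for the comparison. In libraries 1, 2 and 3 the Foxp3+ share was 20.4%, 3.33% and 23.5% for Pdcd1 and 20.4%, 16.7% and 41.2% for Tigit, while Havcr2 was in 3, 0 and 3 cells and Lag3 in 1, 3 and 1. Single libraries decided these ratios. Without library 1 the ratio was 8.53 for Havcr2 (1.76 to 24.9), 13.4 for Lag3 (3.66 to 34.4) and 2.77 for Tigit (1.43 to 4.84). These intervals leave out the error of the CD4+ Tconv cells. Libraries 2 and 3 held 0 and 2 CD4+ Tconv cells with Havcr2 and 0 and 1 with Lag3. With the error of both gates, library 3 gave 1.17 to 73.6 for Havcr2, 0.242 to 53.2 for Lag3 and 1.32 to 6.41 for Tigit. Without library 2 it was 0.485 for Lag3, and without library 3 it was 0.819 for Havcr2. Within the Foxp3+ cells, Ctla4 was found in 36 of 52 cells with an Ikzf2 UMI (69.2%, 54.9 to 81.3) and in 23 of 45 without (51.1%, 35.8 to 66.3), at medians of 1955.5 and 1116 UMIs per cell.

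Whether the receptors were found in the same cells was asked by counting cells with UMIs of both members of each of the 10 pairs. The number expected took each receptor's share in each of the 10 depth bins of every library, and depth within a bin was not matched. A ratio of 1 is thus the number expected from library and depth bin. The median of 6658 genes stood slightly above it in CD8+ T cells, at a mean log2 ratio of 0.06 over the 5 receptors. In CD8+ T cells all 10 ratios were above 1, from 1.12 to 1.39, and 7 of the intervals lay above 1. The share of other genes whose interval lay above expected was 5.56% with Pdcd1, 3.15% with Havcr2, 2.37% with Lag3, 2.09% with Tigit and 3.73% with Ctla4, over 6657 genes. Pdcd1 was above expected with each of the other 4 receptors. It was found with Lag3 in 139 cells against 99.7 (1.39, 1.17 to 1.65), with Havcr2 in 168 against 130 (1.29, 1.11 to 1.5), with Ctla4 in 365 against 289 (1.26, 1.14 to 1.4) and with Tigit in 371 against 315 (1.18, 1.06 to 1.31). The other pairs above expected were Lag3 with Ctla4 (1.24, 1.05 to 1.45), Tigit with Ctla4 (1.19, 1.08 to 1.30) and Havcr2 with Ctla4 (1.17, 1.0 to 1.35). The intervals of Havcr2 with Lag3 (1.17), Lag3 with Tigit (1.14) and Havcr2 with Tigit (1.12) included 1. Of CD8+ T cells with Lag3, 42.8% also had Pdcd1, 45.2% Tigit, 45.5% Ctla4 and 19.7% Havcr2.

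More pairs exceeded the expected number in libraries 1 to 3 than in the deeper libraries 4 to 6. The number of the 10 pairs above expected in libraries 1 to 6 was 4, 4, 3, 0, 1 and 2, and the highest ratio was 1.30, 1.29 and 1.74 in libraries 4, 5 and 6. In libraries 1 and 3 it was 2.75 and 2.73, from 6 and 4 cells with both genes, and the interval of the latter included 1. Library 2 had a highest ratio of 13.1, but only 9, 1, 6, 33 and 37 of its CD8+ T cells had Pdcd1, Havcr2, Lag3, Tigit and Ctla4. Among the 1430 CD8+ T cells without a naive marker UMI, 9 of 10 ratios were above 1, from 1.08 to 1.32, and Lag3 with Tigit was at 0.981, but only the intervals of Pdcd1 with Lag3 (1.32, 1.0 to 1.71) and Lag3 with Ctla4 (1.32, 1.01 to 1.71) lay above 1. Thinning to 1000 UMIs left 4 pairs above expected. Leaving out any 1 library left 6 or 7.

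**Figure D3:**
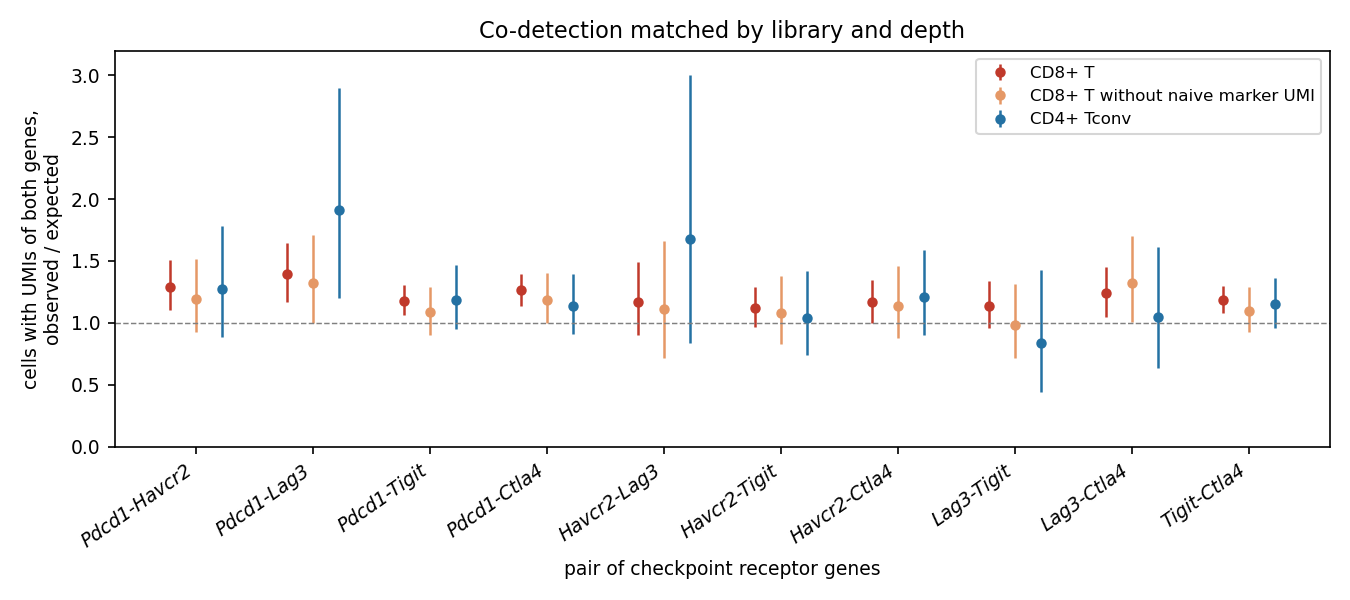
Cells with UMIs of both genes of a pair, observed over the number expected from library and depth, for the 10 pairs in CD8+ T cells, in CD8+ T cells without a naive marker UMI and in CD4+ Tconv cells, with exact Poisson 95% intervals on the observed number. All 10 ratios of CD8+ T cells lay above the dashed line at 1, and the CD4+ Tconv pair furthest above it was Pdcd1 with Lag3 at 1.91.

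In CD4+ Tconv cells 9 of the 10 ratios were above 1, and 1 interval was, that of Pdcd1 with Lag3, with 22 cells against 11.5 expected (1.91, 1.2 to 2.90). The background was 0.611% of 4910 genes with Pdcd1 and 0.428% of 4911 with Lag3, and 0.978%, 0.407% and 0.407% with Havcr2, Tigit and Ctla4. Of the 38 CD4+ Tconv cells with Lag3, 57.9% had Pdcd1. The ratio was 1.91, 1.97, 1.70 and 2.36 in libraries 1, 4, 5 and 6, from 3, 13, 4 and 2 cells with both, and the interval lay above 1 in library 4 alone. Without library 4 the ratio was 1.84 and its interval included 1 (0.842 to 3.49). The interval also included 1 when 2 UMIs were required of the receptors (2.21, 0.812 to 4.81) or of the gating genes (1.36, 0.723 to 2.32). Lag3 with Tigit was the 1 pair below expected, with 13 cells against 15.6 (0.834, 0.444 to 1.43). In Foxp3+ cells none of the 10 intervals excluded 1, with at most 97 cells to draw on. Among the 6838 cells without a gating UMI, whose lineage is unknown, 7 of 10 pairs were above expected. The share of all genes above expected was not computed for these cells, so this count has no background.

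The pairs add up to a surplus of cells with many receptors. In CD8+ T cells, 2410 had none of the 5 (53.6%) against 2233 expected, 1044 had 1 against 1260, 646 had 2 against 686, 285 had 3 against 257, 100 had 4 against 55.2 and 12 had all 5 against 5.02. Cells with 1 receptor were therefore fewer than expected (0.829, 0.779 to 0.880) and cells with 4 were more (1.81, 1.47 to 2.20). Cells with 3 or more numbered 397 (8.83%, 8.02 to 9.70), 1.25 times the number expected (1.13 to 1.38). By library this share was 3.22%, 0.339%, 5.47%, 17.5%, 16.9% and 6.73%, and the ratio to the number expected was 2.49 in library 1 and 2.0, 1.12, 1.19 and 1.29 in libraries 3 to 6, with 3 such cells in library 2. In CD8+ T cells without a naive marker UMI the ratio was 1.17 (0.979 to 1.38).

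In CD4+ Tconv cells those with 4 receptors were few, and their interval held both 1 and the CD8+ ratio of 1.81. Of 1205 cells, 606 had none of the receptors, 88 had 3 or more (7.30%, 5.90 to 8.92) against 68.2 expected (1.29, 1.03 to 1.59), and 2 had all 5. Cells with 3 numbered 76 against 58.1 (1.31, 1.03 to 1.64), and cells with 4 numbered 10 against 9.48 (1.05, 0.506 to 1.94). For cells with 3 or more, the interval included 1 without library 5 (1.23, 0.930 to 1.60) and without cycling cells (1.22, 0.929 to 1.57). It also did so without naive-marker cells (1.15, 0.802 to 1.59) and with 2 UMIs required of Cd4 (1.08, 0.759 to 1.49). The most frequent set of 3 was Pdcd1, Tigit and Ctla4 in both lineages, in 103 CD8+ T cells and 32 CD4+ Tconv cells. Havcr2, Tigit and Ctla4 followed with 40 and 15 cells. Of the CD8+ sets of 4, the most frequent added Lag3 (39 cells) or Havcr2 (38 cells) to the first.

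**Figure D4:**
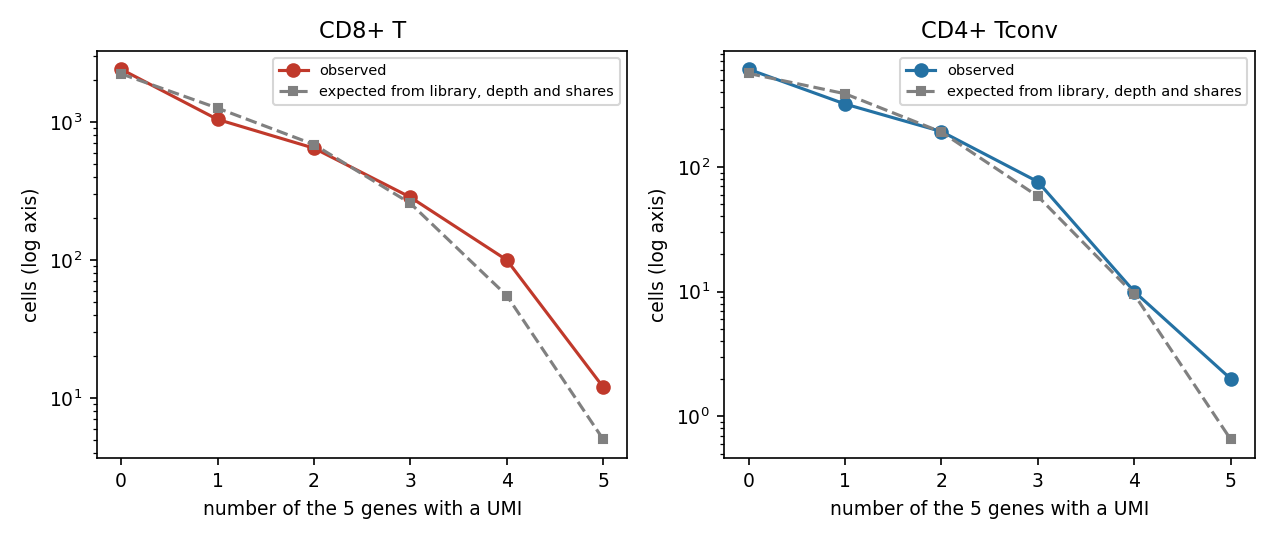
Number of cells (log axis) with 0 to 5 of the receptors, observed and expected from each receptor's share by library and depth, in CD8+ T cells (left) and CD4+ Tconv cells (right). In CD8+ T cells, 100 and 12 cells had 4 and 5 receptors against 55.2 and 5.02 expected, and in CD4+ Tconv cells 10 and 2 against 9.48 and 0.653.

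The receptors were compared between CD8+ T cells with and without naive or cycling transcripts. Of CD8+ T cells without a naive marker UMI, 24.3% had Pdcd1, 10.7% Havcr2, 8.67% Lag3, 29.1% Tigit and 26.1% Ctla4. Of those with one, the shares were 15.2%, 7.86%, 6.55%, 22.6% and 20.7%, at nearly the same median depth (1698 and 1716 UMIs). The widest pooled gap was that of Pdcd1. These shares were not matched by library. Library 2 held 849 of the 3067 cells with a naive marker UMI but 37 of the 1430 without. In libraries 1 to 6, cells without one had Pdcd1 in 16.6%, 2.70%, 17.9%, 31.6%, 31.1% and 21.0%. All CD8+ T cells had it in 10.1%, 1.02%, 12.2%, 30.4%, 30.0% and 20.2%. For Tigit the values were 15.3%, 2.70%, 12.1%, 40.6%, 38.6% and 27.1%, beside 10.3%, 3.72%, 11.9%, 43.8%, 40.6% and 28.1%. CD8+ T cells with a UMI of Mki67, Top2a or Ccnb2, genes of dividing cells, had Pdcd1 in 36.3%, Havcr2 in 19.4%, Lag3 in 14%, Tigit in 41.5% and Ctla4 in 43.0%, against 15%, 6.95%, 6.07%, 21.8% and 18.9% in the rest, but their median depth was 3623.5 against 1558 UMIs. Matched for depth, Mki67 was found with Ctla4 at 1.15, Havcr2 at 1.14, Pdcd1 at 1.11, Tigit at 1.04 and Lag3 at 1.01 times the expected number. In the same order Top2a gave 1.12, 1.16, 1.09, 1.01 and 0.853, and Ccnb2 gave 1.09, 0.781, 1.03, 0.994 and 1.10. The 5 cycling markers had a median mean log2 ratio of 0.06, equal to the 0.06 of all genes.

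To place the receptors among all genes, the log2 ratio of co-detection was averaged over the 5 receptors for each of 6658 genes found in at least 100 CD8+ T cells. The median gene was at 0.06, and 90% of genes lay between -0.09 and 0.22. Against the other 4 receptors, Pdcd1 was at 0.36 (rank 24), Lag3 at 0.30 (rank 82), Ctla4 at 0.28 (rank 119), Havcr2 at 0.24 (rank 215) and Tigit at 0.21 (rank 438). The 10 genes with the highest mean log2 ratio, the receptors aside, were Nrgn (0.55), Rgs16 (0.52), Bmyc (0.47), Tnfrsf4 (0.44), Ccr8 (0.43), Tox (0.43), Arl14ep (0.41), Lrrc8d (0.41), Fez2 (0.41) and Mt2 (0.40). Rgs16 restrains G protein signaling, Ccr8 encodes a chemokine receptor, Tox encodes a transcription factor of chronically stimulated T cells and Mt2 encodes a metallothionein. Only Nrgn and Rgs16 (0.03% of genes) exceeded 0.5, and 0.0751% of genes lay under -0.5. Among the latter were Igfbp4 (-1.46), Tmem108 (-1.23), Dapl1 (-0.67) and Actr6 (-0.52). Actr6 rested mostly on Lag3 (3 cells against 11.2) and Havcr2 (8 against 14.6), and was found with Pdcd1 in 30 cells against 27.3.

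The genes with the highest ratios were also taken for each receptor alone in CD8+ T cells. Of the genes named below, Nrgn, Bmyc, Tox and Lrrc8d were also among those with the highest mean log2 ratio over the receptors, and the others were not. Whether a partner differed between receptors was not tested. Lag3 was found with Nrgn in 43 cells against 17.0 expected (2.52), with Bmyc in 17 against 6.55 (2.59) and with Praf2 in 27 against 13 (2.08), and with Tox in 44 against 26.2. Havcr2 was found with Gzmc, a granzyme of strongly activated cells, in 49 against 25 (1.96), followed by Trit1 and Sel1l. Pdcd1 was found with Smpdl3b in 65 against 39.7 (1.64), followed by Cog4 and Lrrc8d. The leading genes of Tigit were Samd4b, Gphn and Arl16 (1.37 to 1.4) and those of Ctla4 were Aig1, Plekhm1 and Bnip3 (1.43 to 1.45). These genes were picked as the highest of all those compared, and their ratios are descriptions.

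In CD4+ Tconv cells the same measure over 4911 genes found in at least 50 cells had a median of -0.00, with 90% of genes between -0.31 and 0.23. Pdcd1 was at 0.42 (rank 12), Havcr2 at 0.34 (rank 34), Ctla4 at 0.18 (rank 446) and Tigit at 0.06 (rank 1441), and Lag3 was in too few cells. The leading genes were Elk3 (0.50), Tnfrsf9 (0.46), Rc3h1 (0.45), Rab43 (0.45), Osbpl9 (0.45), Spag9 (0.44), Plscr1 (0.44), Acsbg1 (0.44), Zfp445 (0.44) and Lin54 (0.43). Tnfrsf9 encodes the costimulatory receptor 4-1BB, and Rc3h1 encodes Roquin, which represses the mRNA of costimulatory receptors. None of the genes exceeded 0.5 (0%) and 1.38% lay under -0.5, the lowest being Igfbp4 (-1.39), Id3 (-1.09), Pnpla8 (-1.01), Evl (-0.94) and Ccr7 (-0.94). Evl rested mostly on Lag3 (0 cells against 7.17), with log2 ratios of -0.17 with Pdcd1 and 0.08 with Tigit. Pnpla8 rested mostly on Havcr2 (0 against 6.08), with -0.07 with Pdcd1 and 0.04 with Tigit. Ccr7 was found with Havcr2 in 0 cells against 3.68. Cd81 led the partners of both Pdcd1 (33 cells against 15.6, 2.11) and Lag3 (13 against 4.42, 2.94). Dnm1l led those of Havcr2 (2.20), Tmed4 those of Tigit (1.62) and Gm26532 those of Ctla4 (1.68).

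Genes that act with the receptors were grouped by role in CD8+ T cells, with the mean log2 ratio of co-detection beside the median of 0.06 over all genes. Costimulatory receptors had a median of 0.18 over 6 genes, led by Tnfrsf4 (0.44) and Tnfrsf9 (0.34), with Icos at 0.18 and Cd226, the competitor of TIGIT, at -0.01. Ligands of the receptors had a median of 0.11 over 7 genes, with Pvr (CD155, the TIGIT ligand) at 0.28, Pdcd1lg2 (PD-L2) at 0.25, Cd274 (PD-L1) at 0.11 and Lgals9 (galectin-9) at -0.02. Transcription factors had a median of 0.10 over 18 genes, from Tox (0.43), Prdm1 (0.35) and Nr4a3 (0.28) to Nfatc2 (-0.18), Id3 (-0.31) and Tcf7 (-0.32). Tcf7, which keeps T cells in a stem-like state, was found with Havcr2 at 0.508 times the expected number and with Ctla4 at 1.02 times. Signaling genes had a median of 0.04 over 10 genes, led by the ubiquitin ligase gene Cblb (0.25), with the phosphatase genes Ptpn11 at 0.18 and Ptpn6 at -0.04. Effector genes had a median of 0.04 over 7 genes, with Prf1 at 0.16, Gzmb at 0.12, Ifng at 0.04 and Tnf at -0.18. Other inhibitory receptors had a median of 0.04 over 8 genes, with Klrg1 at 0.21, Entpd1 (CD39) at 0.15 and Cd96 at -0.08. Entpd1 was found with Havcr2 at 1.56 times the expected number and with Lag3 at 0.772 times. The naive markers had a median of -0.17 over 5 genes and the cycling markers 0.06 over 5. In these lists no gene found in at least 100 cells lay over 0.5 or under -0.5.

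In CD4+ Tconv cells the lists had medians of 0.12 for costimulatory receptors, 0.04 for ligands, 0.01 for other inhibitory receptors, -0.01 for signaling genes, -0.01 for transcription factors, -0.12 for effector genes, -0.18 for cycling markers and -0.24 for naive markers, beside -0.00 over all genes. Id3 and Tcf7 among the transcription factors and Ccr7 and Tcf7 among the naive markers lay under -0.5.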

How the data were processed

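The authors prepared libraries with a 10x 5′ kit, mapped reads to mm10 per the methods (mm9 per the submitters' processing notes), merged 6 libraries with Cell Ranger and filtered cells in Seurat. What they deposited is 1 table of raw counts, each a whole number of UMIs for a gene in a cell. Cells had 201 to 2494 genes and at most 4.94% mitochondrial UMIs. The annotation used for counting was not given in the sources used here. No library could be matched to a labelled sample, and none was assigned a treatment. Summed over cells, the 2 most similar libraries differed by a chi-square of 2.72 per degree of freedom, above sampling noise.

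A gene counted as detected with at least 1 UMI. Shares carry exact Clopper-Pearson intervals, and observed numbers exact Poisson intervals. Depth was matched in 10 bins of UMIs per cell within each library (4 for Foxp3+ cells). Expected pairs were the product of the receptors' cell numbers over the bin size, summed over bins, and the expected number of receptors per cell followed from the same shares. On the log2 scale 0.5 was added to both numbers. Gate ratios were made for genes with a UMI in at least 50 cells of both gates together, and partner genes needed 100 CD8+ T or 50 CD4+ Tconv cells. Doublets were not called here, and cells that held Cd4 together with Cd8 entered neither lineage. Named genes were the receptors, the pathway lists, and the 10 highest, 5 lowest and, for each receptor, 3 highest partners. 1 gene of the naive list is not reported here and entered neither the naive-marker cells nor that list, and the Ccr7 and Lef1 background was chosen after seeing the data. The members and lists were chosen with earlier results of these data known. Cell type marker lists (naive, cycling, T cell, B cell, myeloid, NK and melanoma) were checked: of the 629 cells with 3 or more receptors, 16 had a UMI of the B cell genes Cd79a or Cd79b, 36 of the myeloid genes Itgam, Cd68 or Csf1r and 101 of an NK gene, a list that holds Eomes. Promoter windows came from RefSeq tables, in which 4 of 5 genes matched. The procedure was tested on simulated data. Python 3.11.15, numpy 2.4.6, scipy 1.17.1 and matplotlib 3.10.9 were used. Alternatives were matching by library alone, 4 depth bins, thinning to 1000 UMIs, 2 UMIs of a receptor or of the gating genes, leaving out the deepest 5% of cells, cycling cells or each library, and no minimum number of cells.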

Additional observations from a re-analysis of the deposited data

How the results depend on the processing

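No paired analysis was possible because the cells could not be matched to the labelled samples, so the planned comparison of PBS with DTx, its fit with a replicate block and its other normalization were not run. Results that left the 95% interval of the reported value are given here, and the cause was not tested. Leaving out cells with a naive marker UMI or a barcode of 2 libraries, and the Mantel-Haenszel ratio, were chosen after seeing the data. For CD8+ against CD4+ Tconv cells, matching by library alone gave 1.25 for Havcr2 and 0.907 for Ctla4. Requiring 2 UMIs of a receptor gave 1.24 for Pdcd1, 1.09 for Lag3, 1.16 for Tigit and 0.857 for Ctla4. Requiring 2 UMIs of the gating genes gave 0.940 for Pdcd1, the only reversal among the called ratios, 0.923 for Havcr2 and 1.83 for Lag3. Without cycling cells Tigit was at 0.960 and Ctla4 at 0.725. Without naive-marker cells the ratios were 1.22 for Pdcd1, 0.990 for Havcr2 and 0.912 for Ctla4. The Mantel-Haenszel ratio of Ctla4 was 0.873. Leaving out each library gave 0.991 to 1.18 for Havcr2, 2.01 to 2.85 for Lag3, 0.956 to 1.12 for Tigit and 0.732 to 0.881 for Ctla4. For Foxp3+ cells, library matching alone gave 1.75 for Tigit and 3.27 for Ctla4, and thinning gave 0 for Lag3 and 2.73 for Ctla4. Requiring 2 gating UMIs left 20 Foxp3+ cells and gave 2.84 for Pdcd1, 7.95 for Lag3 and 5.36 for Tigit. Lag3 was at 0.307 without the deepest cells and at 0 without naive-marker cells. Leaving out each library gave 0.819 to 8.53 for Havcr2, 0.485 to 13.4 for Lag3 and 0.853 to 2.77 for Tigit. Of the 7 CD8+ pairs above expected, 4 were counted after thinning and 2 without naive-marker cells. The 1 CD4+ Tconv pair became 7 by library alone, 2 after thinning, and 0 with 2 UMIs of a receptor or of the gating genes. For cells with 3 or more receptors, matching by library alone gave 1.59 in CD8+ T and 1.75 in CD4+ Tconv cells, thinning gave 1.57 and 2.01, and 2 UMIs of a receptor gave 2.15 in CD8+ T cells. Without a minimum number of cells, 2088 genes in place of 223 were over 2-fold higher in CD8+ than in CD4+ Tconv cells. The intervals treat the expected number as fixed except for the Mantel-Haenszel ratio, and bins with few cells pull co-detection toward 1. Lag3 rests on 38 CD4+ Tconv cells and the Foxp3+ values on 97 cells.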
